A study of Rattus norvegicus with 6 samples.

Results

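The CaMKK2, LKB1 and AMPK group comprised 10 genes that were chosen by name. They were the calmodulin-dependent kinase kinases Camkk1 and Camkk2, their substrate Camk1, the LKB1 gene Stk11 and 6 AMPK subunit genes (Prkaa1, Prkaa2, Prkab1, Prkab2, Prkag1 and Prkag2). All 10 genes were on the array, with 19 probe sets carrying exactly 1 of these symbols out of 31042 probe sets tested. The group was assembled because Camkk2 was among the genes with the highest differences in an earlier pass over the same arrays. Its values, intervals and threshold call are therefore a description and no independent evidence of a difference, and the other members' values come from that same contrast.

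RNA of LN4D6, a line of rat mammary tumour cells, was hybridised to Affymetrix 3' expression arrays. The 3 CREB3L1 samples had been transfected with CREB3L1, a membrane-bound transcription factor of the endoplasmic reticulum that proteolysis releases, and the 3 other samples were untransfected. No empty-vector control is among these samples. The labels tell neither the construct's species nor whether transfected cells were a clone, a pool or a transient culture. Nothing in the labels says that the samples of a group derive from independent cultures. The p-values therefore measure only the spread between these samples, which may be technical. Values are log2 RMA expression values. Signals under a log2 value of 5 are called below background. Each array had 37.9% to 38.6% of its probe sets at that value or higher.

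AMPK is a kinase that senses falling cellular energy, built from a catalytic alpha, a scaffolding beta and a nucleotide-binding gamma subunit. It is switched on when LKB1 or, in response to calcium, CaMKK2 phosphorylates its alpha subunit, and it then slows lipid, protein and glycogen synthesis. CaMKK1 and CaMKK2 also activate the calmodulin-dependent kinases CaMKI and CaMKIV. Transcript levels do not report phosphorylation, and the activity of these kinases was not measured.

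One array, CREB3L1 replicate 3, correlated less well with the rest (r = 0.984 to 0.989) than those 5 did among themselves (0.996 to 0.999). Its control probe sets differed too: 3' minus 5' signal (log2) was 4.77 for Gapdh, with -0.16 to -0.10 elsewhere, and 7.44 for beta-actin, with 2.35 to 3.41 elsewhere. The differences of the members above background are given with and without it. As a check of the cell line, the basal keratin genes Krt5 and Krt14 averaged 14.81 and 15.08 in CREB3L1 cells and 14.67 and 15.25 in untransfected cells, and Krt8 averaged 13.17 in CREB3L1 cells and 13.24 in untransfected cells. The mesenchymal gene Vim averaged 15.39 in CREB3L1 cells and 15.35 in untransfected cells. Of the 7 markers in each list, 1 epithelial, 4 basal or myoepithelial (Krt5, Krt14, Tp63 and Acta2) and 1 fibroblast or mesenchymal marker had a mean at or above background. The rest lay below it in both groups, among them Epcam, Cdh1, Krt18 and Krt19 of the epithelial list and Krt17, Oxtr and Mylk of the basal list. The 8 endothelial and leukocyte markers measured stayed below background on every array, with a highest value of 4.62.

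The upstream kinase gene Camkk2 was higher in CREB3L1 cells. Its brighter probe set (1375025_at) read 10.01, 9.95 and 9.95 on the CREB3L1 arrays, against 8.43, 8.48 and 8.25 on the untransfected arrays. The groups did not overlap: the lowest CREB3L1 value exceeded the highest untransfected value by 1.47, while the CREB3L1 arrays spanned 0.07 and the untransfected arrays 0.23. CREB3L1 replicate 3, which stood apart over the whole array, read within this narrow span. The means were 9.97 ± 0.04 in CREB3L1 cells and 8.39 ± 0.12 in untransfected cells (SD, n = 3 each). The difference of 1.58 ± 0.07 (SE) corresponds to 3.0-fold, and without CREB3L1 replicate 3 it was 1.59 ± 0.08. In such bulk RNA, a change in the share of cells that express a gene and a change in RNA per cell cannot be told apart.

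The second Camkk2 probe set (1368753_at) read 3.13, 4.08 and 3.24 on the CREB3L1 arrays and 3.02, 2.81 and 3.10 on the untransfected arrays. All 6 values lay below background, and the difference was 0.51 ± 0.27 with all arrays and 0.22 ± 0.10 without CREB3L1 replicate 2, the highest of them. No fold is given for it. The mean of both probe sets gave 1.05 ± 0.13, so the size of the Camkk2 difference depends on how its probe sets are combined. The files do not say which transcript forms or which stretch of the gene each probe set reads.

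Camkk1, the other calmodulin-dependent kinase kinase, sat at the background level. It read 5.17, 5.21 and 4.77 on the CREB3L1 arrays and 5.42, 5.03 and 5.13 on the untransfected arrays, and the groups overlapped. Its difference was -0.14 ± 0.16, with a 95% interval of -0.55 to 0.26, and 0.00 without CREB3L1 replicate 3. A difference of the size seen for Camkk2 lies outside both intervals, the second of which ran from -0.31 to 0.31. Close to background, however, an array value understates a change in transcript.

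Camk1, which encodes a calmodulin-dependent kinase that both CaMKKs phosphorylate, read 7.54, 7.22 and 7.49 on the CREB3L1 arrays and 7.75, 7.56 and 7.64 on the untransfected arrays. The highest CREB3L1 value lay just under the lowest untransfected value. The difference was -0.23 ± 0.10, with an interval of -0.49 to 0.02 that includes 0, and it was -0.27 ± 0.11 without CREB3L1 replicate 3.

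The LKB1 gene Stk11 was not detected above background. Its 3 probe sets read 1.43 to 2.32 over all 6 arrays, and their differences were -0.03 to 0.03, with intervals reaching no further than -0.19 and 0.13. A signal below background gives no level of the transcript, so these probe sets tell neither how much Stk11 RNA the cells held nor whether it differed between the groups within that range. One of them (1381830_x_at) carries the suffix that marks probes shared with other sequences.

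Of the catalytic subunits, Prkaa1 (AMPK alpha 1) was bright, with no difference detected. Its brightest probe set (1375970_at) read 12.24, 12.29 and 12.16 on the CREB3L1 arrays and 12.16, 12.24 and 12.25 on the untransfected arrays, with a difference of 0.02 ± 0.05 and an interval of -0.11 to 0.14. The CREB3L1 and untransfected values overlapped. A second Prkaa1 probe set (1369104_at) read 7.60, 7.55 and 6.13 in CREB3L1 cells and 7.30, 7.60 and 6.90 in untransfected cells. Its low value belongs to CREB3L1 replicate 3, and the difference was -0.17 ± 0.45 with this array and 0.31 ± 0.20 without it. The interval with all arrays, -1.31 to 0.96, includes sizeable differences of either sign. The third Prkaa1 probe set lay below background on every array. Prkaa2 (AMPK alpha 2), the form known from skeletal muscle, read 1.91 to 1.99 in CREB3L1 cells and 1.90 to 1.99 in untransfected cells, below background throughout.

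Among the beta subunits, which hold the complex together and bind glycogen, Prkab1 was bright. It read 11.45, 11.49 and 11.77 on the CREB3L1 arrays and 11.32, 11.46 and 11.38 on the untransfected arrays. The highest value was again on CREB3L1 replicate 3, and the difference of 0.18 ± 0.10 became 0.08 ± 0.05 without it. Both intervals include 0 (-0.06 to 0.43 with all arrays, -0.05 to 0.22 without that array). Both Prkab2 probe sets stayed between 1.98 and 3.0, below background, on every array.

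Prkag1 encodes the gamma 1 subunit, through which AMPK binds AMP, ADP and ATP. It read 10.63, 10.55 and 10.29 on the CREB3L1 arrays, all under the 10.78, 10.72 and 10.70 of the untransfected arrays. The difference was -0.24 ± 0.09, with a 95% interval of -0.48 to -0.01, and -0.14 ± 0.05 without CREB3L1 replicate 3 (interval -0.26 to -0.02). That single-gene interval just leaves out 0, but the probe set did not pass the threshold adjusted over all probe sets in either setting. The 4 Prkag2 probe sets read 1.30 to 2.84, below background on every array.

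**Figure D1:**
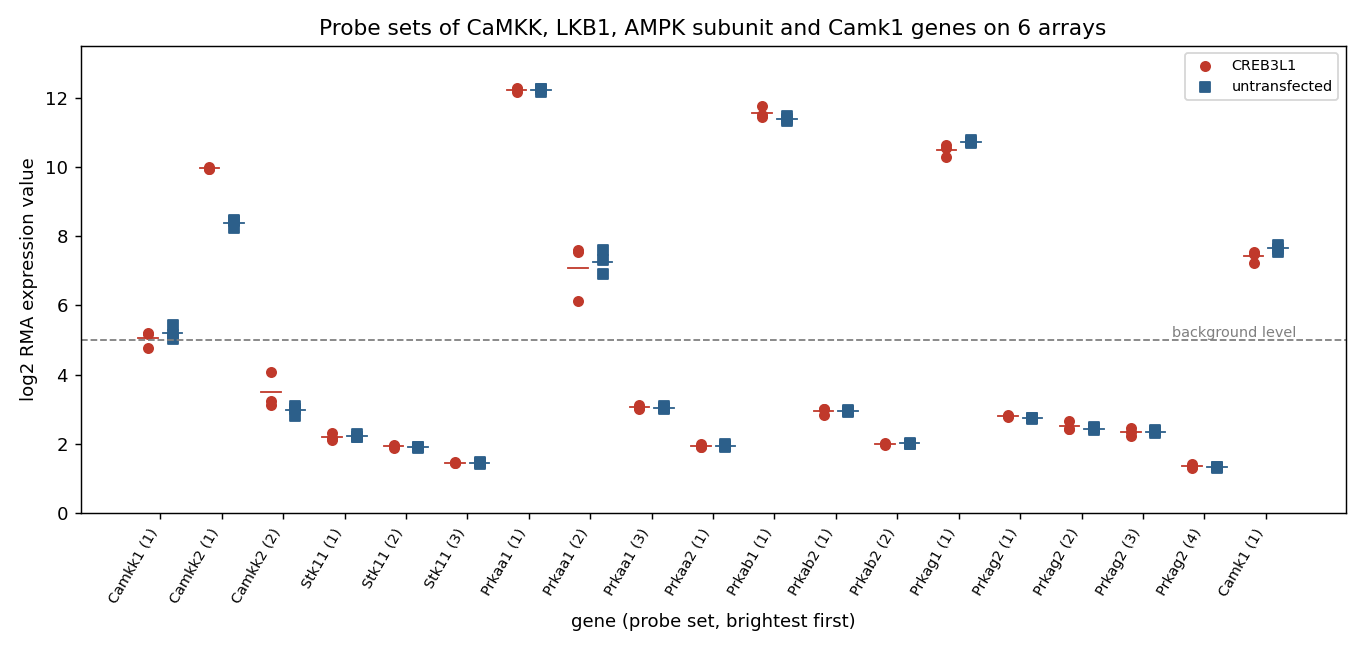
Log2 RMA expression value (vertical axis) of each of the 19 probe sets, named by gene and ranked by brightness within it. Red circles are the 3 CREB3L1 arrays and blue squares the 3 untransfected arrays, short lines are group means and the dashed line is the background level of 5. The brighter Camkk2 probe set has group means of 9.97 in CREB3L1 cells and 8.39 in untransfected cells, with 1.47 between the nearest values.

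Read against background alone, 7 of the 19 probe sets, from 6 genes, had a group mean at or above a log2 value of 5. For each AMPK subunit 1 of the 2 member genes was above it (Prkaa1, Prkab1 and Prkag1) and the other below it (Prkaa2, Prkab2 and Prkag2), in CREB3L1 and untransfected cells alike. Prkag3, a further gamma subunit gene known from skeletal muscle, also lay below it (2.25 in CREB3L1 cells, 2.26 in untransfected cells). Levels of different probe sets cannot be set against each other on these arrays. These statements therefore concern signal above background and not relative amount.

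Across the group, 1 of 19 probe sets passed limma's threshold of an adjusted p below 0.05, the brighter Camkk2 probe set, where 1.39% of all probe sets passed it (0.425% higher and 0.963% lower in CREB3L1 cells). Without CREB3L1 replicate 3 the count was again 1 of 19, where 3.98% of all probe sets passed. The groups did not overlap for 5 of the 19, where this was so for 14.3% of all probe sets. Of these 5, 3 were above background (Camkk2, Camk1 and Prkag1, among 7 such probe sets), where the share of all probe sets above background was 29.5%. The other 2, the second Camkk2 probe set and 1 of Prkag2, were below it. Since Camkk2 was known to differ when the group was drawn up, nothing is read from these counts. The 6 probe sets above background other than that of Camkk2 had a median absolute difference of 0.18, and all 12072 probe sets above background had one of 0.18 as well.

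**Figure D2:**
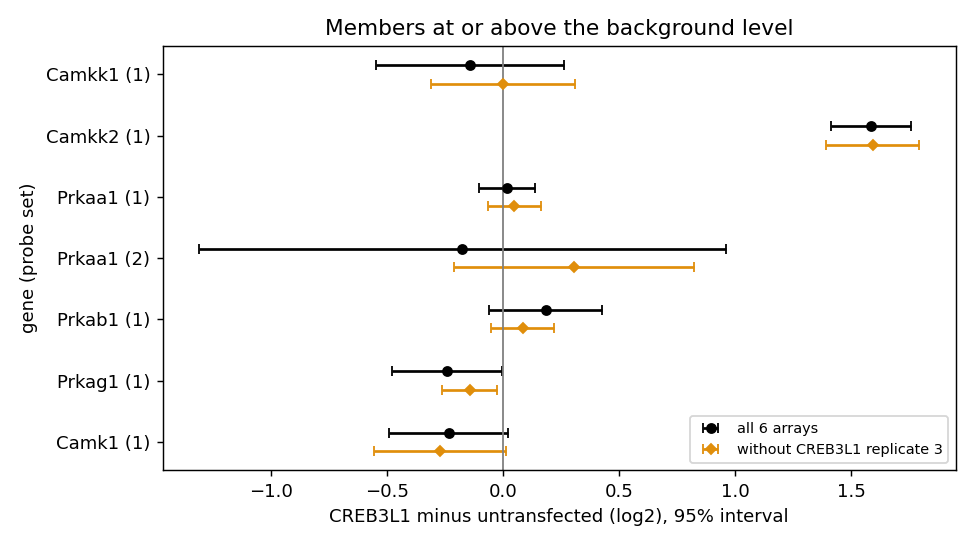
Difference between CREB3L1 and untransfected cells (horizontal axis, log2) with its 95% interval for the 7 probe sets at or above the background level. Black circles use all 6 arrays and orange diamonds leave out CREB3L1 replicate 3. Camkk2 lies at 1.58 and 1.59, while the other 6 lie between -0.24 and 0.18 with all arrays, and the second Prkaa1 probe set moves to 0.31 without that array.

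A promoter entry in RefSeq (GRCr8) was found for 9 of the 10 genes, in 10 windows, and not for Camkk2. The 250 bases before each start site were searched on both strands for TGACGT, the core of the cAMP response element, and for ACGTG, the core of elements that factors of the CREB3 and ATF6 families are known to bind. The motifs share letters, so that a run of both is possible. TGACGT lay in 1 of the 10 windows, that of Prkag1, and in 6.95% of all 33469 windows. ACGTG lay in 1 window, that of Stk11, and in 16.6% of all windows. Those windows are printed because they are the ones with a match, with the motif letters in capitals, 5' to 3' on the strand of the gene. The Prkag1 window is chr7:131859485-131859734 (minus strand) and the Stk11 window chr7:10241966-10242215 (minus strand), both in GRCr8.
Prkag1: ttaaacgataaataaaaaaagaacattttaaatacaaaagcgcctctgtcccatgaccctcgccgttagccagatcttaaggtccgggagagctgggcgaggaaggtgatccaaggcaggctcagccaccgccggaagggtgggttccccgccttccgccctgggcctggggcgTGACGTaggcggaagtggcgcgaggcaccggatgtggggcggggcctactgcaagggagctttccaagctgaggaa
Stk11: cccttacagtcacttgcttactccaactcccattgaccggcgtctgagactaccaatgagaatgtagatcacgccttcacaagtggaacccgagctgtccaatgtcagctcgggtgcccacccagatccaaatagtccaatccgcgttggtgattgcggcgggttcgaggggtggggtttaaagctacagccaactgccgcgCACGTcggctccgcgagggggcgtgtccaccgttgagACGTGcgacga
A match is no binding site, and its absence from a window says nothing about the factor. The Prkag1 difference was the -0.24 ± 0.09 given above, and Stk11 lay below background. The ACGTG motif occurs in both orientations in the Stk11 window.

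Genes on either side of Camkk2 were read to see how far along the chromosome the difference extended. In RefSeq's gene order, the 5 nearest measured genes on each side are Tmem120b, Orai1, Kdm2b, Rnf34 and Anapc5 on one side and P2rx4, P2rx7, Ift81, Atp2a2 and Anapc7 on the other. By limma 0 of these 10 passed the threshold, where 2.10% of all genes did. By an ordinary linear model 0 passed as well. By limma 4 of the 10 had an unadjusted p below 0.05, a higher share than the 14.0% of all genes. All 4 (Orai1, Kdm2b, Rnf34 and Atp2a2) were higher in CREB3L1 cells. Anapc5, the adjacent gene on one side, encodes a subunit of the anaphase-promoting complex and differed by 0.14 ± 0.11 with all arrays and by 0.03 ± 0.07 without CREB3L1 replicate 3. P2rx4, the adjacent gene on the other side, encodes an ATP-gated calcium-permeable channel, and its annotated span overlaps that of Camkk2 by 282 bases. It read 8.08, 8.14 and 8.04 in CREB3L1 cells and 8.10, 8.45 and 8.31 in untransfected cells, a difference of -0.20 ± 0.10 with a 95% interval of -0.44 to 0.04.

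With each gene read by its brightest probe set, the highest difference among the neighbours belonged to Kdm2b, a histone demethylase gene. It read 10.59, 10.65 and 11.03 in CREB3L1 cells and 10.15, 10.22 and 10.28 in untransfected cells. Its difference was 0.54 ± 0.13 (adjusted p = 0.181). Without CREB3L1 replicate 3 it was 0.40 ± 0.05 and passed (adjusted p = 0.0252). The store-operated calcium channel gene Orai1 differed by 0.27 ± 0.09 (interval 0.03 to 0.50, adjusted p = 0.436). Rnf34 differed by 0.31 ± 0.09 (interval 0.09 to 0.52, adjusted p = 0.262). Atp2a2, the calcium pump of the endoplasmic reticulum, differed by 0.22 ± 0.06 (adjusted p = 0.227). Its dimmer probe sets above background gave 0.72 ± 0.35 and 0.51 ± 0.25, the former higher than the Kdm2b difference. Both intervals include 0 (-0.17 to 1.61 and -0.11 to 1.14), and on both the highest value was that of CREB3L1 replicate 3. Ift81 and Anapc7 differed by -0.05 ± 0.05 and 0.00 ± 0.10. P2rx7 and Tmem120b lay below background in both groups.

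**Figure D3:**
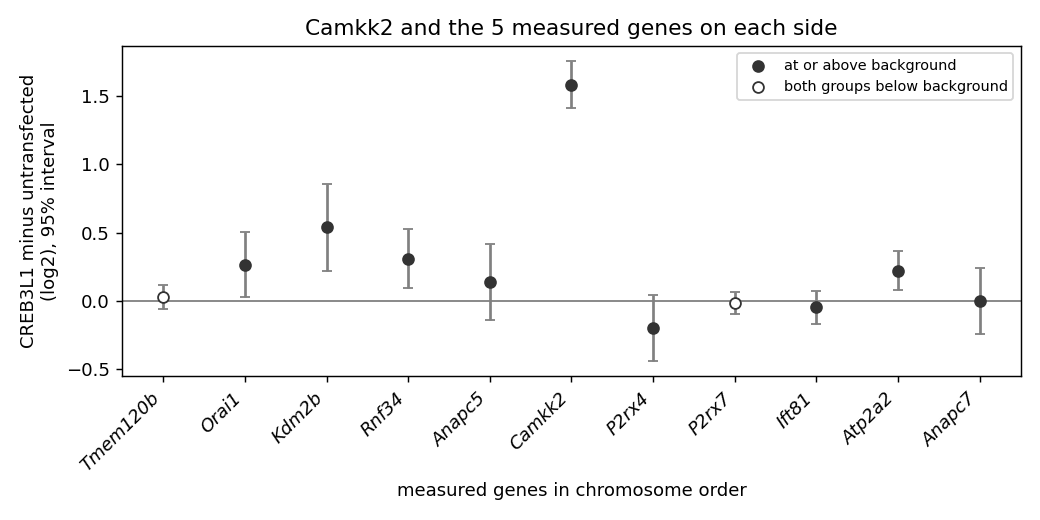
Difference between CREB3L1 and untransfected cells (vertical axis, log2) with its 95% interval for Camkk2 and the 5 nearest measured genes on each side, in chromosome order. Filled points are genes at or above the background level in a group, and open points lay below it in both. Each gene is shown by its brightest probe set. Camkk2 stands at 1.58, and its neighbours lie between -0.20 and 0.54.

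Around the pathway, 106 further genes in 6 lists were measured, and 2 of them passed the threshold (1.89%, against 2.10% of all genes). Both were lower in CREB3L1 cells, where 1.52% of all genes were lower and 0.577% higher. An unadjusted p below 0.05 was found for 17 of the 106, and for 14.0% of all genes. The median difference over the 106 genes was -0.01, as it was over all genes. By an ordinary linear model without moderation, 0 passed. Leaving out CREB3L1 replicate 3 raised the count to 6 of 106 (5.66%), 1 higher and 5 lower, against 5.72% of all genes (2.02% higher and 3.70% lower).

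Of the partners and regulators of LKB1 and AMPK, 15 of 17 genes were measured, 1 fell and 0 rose, with a median difference of -0.02. The gene that fell was Ppp2ca, the catalytic subunit of protein phosphatase 2A, which can remove the activating phosphate from AMPK. It read 10.90, 10.97 and 10.61 in CREB3L1 cells and 11.48, 11.57 and 11.52 in untransfected cells, so that the groups were well apart. The difference was -0.70 ± 0.10, or 1.63-fold lower, with a limma adjusted p of 0.049998, just under the threshold. Omitting CREB3L1 replicate 1 or 2, or any untransfected array, ended the call (adjusted p = 0.0993 to 0.210), while without CREB3L1 replicate 3 the difference was -0.59 ± 0.04 (adjusted p = 0.00549). The dimmer Ppp2ca probe set had no signal above background. The LKB1 scaffold gene Cab39 and the pseudokinase partner genes Strada and Stradb did not pass. Their differences were -0.05 ± 0.05, 0.30 ± 0.24 and -0.02 ± 0.18 with all arrays, and -0.09 ± 0.04, 0.04 ± 0.10 and -0.20 ± 0.11 without CREB3L1 replicate 3. Map3k7, a further kinase gene whose product is reported to act upstream of AMPK, did not pass either, and its sign turned (-0.03 ± 0.11 with all arrays, 0.09 ± 0.04 without that array).

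Without CREB3L1 replicate 3, Sesn2, Gys1 and Sik3 also passed the threshold. Sesn2, a stress-induced sestrin gene whose product favours AMPK activation, read 10.26, 10.45 and 11.37 on the CREB3L1 arrays, the last of these on replicate 3, and 11.21, 11.02 and 11.36 on the untransfected arrays. The difference was -0.51 ± 0.31 with all arrays (adjusted p = 0.872) and -0.85 ± 0.12 without CREB3L1 replicate 3 (adjusted p = 0.0284). The glycogen synthase gene Gys1 gave -0.58 ± 0.26 with all arrays (adjusted p = 0.626) and -0.86 ± 0.11 without this one (adjusted p = 0.0252). The LKB1-dependent kinase gene Sik3 gave -0.31 ± 0.16 with all arrays (adjusted p = 0.741) and -0.48 ± 0.08 without this one (adjusted p = 0.0429). These 3 genes were named after their values were seen.

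Calmodulin and its kinases, the list nearest to CaMKK2, showed 0 of 17 measured genes past the threshold by limma and 0 by the ordinary model. At an unadjusted p below 0.05 there were 0 as well, against 14.0% of all genes. Calm2, which encodes calmodulin, the calcium sensor that activates CaMKKs, read 14.86, 14.86 and 14.85 in CREB3L1 cells and 15.01, 14.89 and 14.88 in untransfected cells. The smallest p belonged to Eef2k, the elongation factor 2 kinase gene (-0.38 ± 0.18, adjusted p = 0.654, and -0.22 ± 0.13 without CREB3L1 replicate 3), and Camk2d, a subunit gene of CaMKII (-0.09 ± 0.05, adjusted p = 0.765). Camk4, the gene of CaMKIV, a further kinase that the CaMKKs activate, lay below background in both groups (2.30 in CREB3L1 cells, 2.26 in untransfected cells).

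Among the kinases that LKB1 activates beside AMPK, 0 of 10 passed with all arrays by limma or the ordinary model. By limma 2 of the 10 had an unadjusted p below 0.05, where 14.0% of all genes did. Nuak2 came closest. It read 10.53, 10.60 and 10.76 in CREB3L1 cells, all above the 10.23, 10.15 and 10.17 of untransfected cells, a difference of 0.44 ± 0.07 (adjusted p = 0.0596). Without CREB3L1 replicate 3 it passed at 0.38 ± 0.04 (adjusted p = 0.0182). Snrk followed with -0.15 ± 0.05 (adjusted p = 0.372).

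Of AMPK substrates and energy metabolism genes, 30 of 32 were measured, 1 fell and 0 rose, with a median of -0.02. Pfkfb3, an activator of glycolysis whose product AMPK phosphorylates, was below background in CREB3L1 cells (4.52 ± 0.10) and just above it in untransfected cells (5.28 ± 0.08, SD, n = 3 each), at least 1.21-fold lower (adjusted p = 0.0134). The call was lost without CREB3L1 replicate 2 (adjusted p = 0.0773), untransfected replicate 1 (0.0789) or untransfected replicate 2 (0.0863). The acetyl-CoA carboxylase gene Acaca, whose product AMPK inhibits, differed by 0.24 ± 0.22 with all arrays and by 0.00 ± 0.07 without CREB3L1 replicate 3. The autophagy kinase gene Ulk1 gave 0.38 ± 0.25 with all arrays and 0.09 ± 0.04 without that array, and the raptor gene Rptor 0.03 ± 0.23 and -0.19 ± 0.14. None of these 3 passed the threshold in either setting. Fasn, the fatty acid synthase gene, gave 0.51 ± 0.13 (adjusted p = 0.218) and Srebf1, a transcription factor gene of lipid synthesis, -0.26 ± 0.06 (adjusted p = 0.205).

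Calcium entry, store release and pump genes gave 0 of 21 past the threshold by limma and by the ordinary model, with a median of 0.00. By limma 6 of the 21 had an unadjusted p below 0.05, a higher share than the 14.0% of all genes. The plasma membrane calcium pump gene Atp2b1 had the smallest p. It read 12.86, 12.95 and 13.04 in CREB3L1 cells, all above the 12.38, 12.40 and 12.61 of untransfected cells, a difference of 0.49 ± 0.08 (adjusted p = 0.0790). Its other 2 probe sets gave 0.24 ± 0.35 and 0.26 ± 0.10. On the first of these CREB3L1 replicate 3 had the lowest value of the 6 arrays, and the other CREB3L1 arrays, at 11.70 and 11.64, the highest. Stim1, the calcium sensor of the endoplasmic reticulum that opens Orai1, gave 0.23 ± 0.06 (adjusted p = 0.225).

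**Figure D4:**
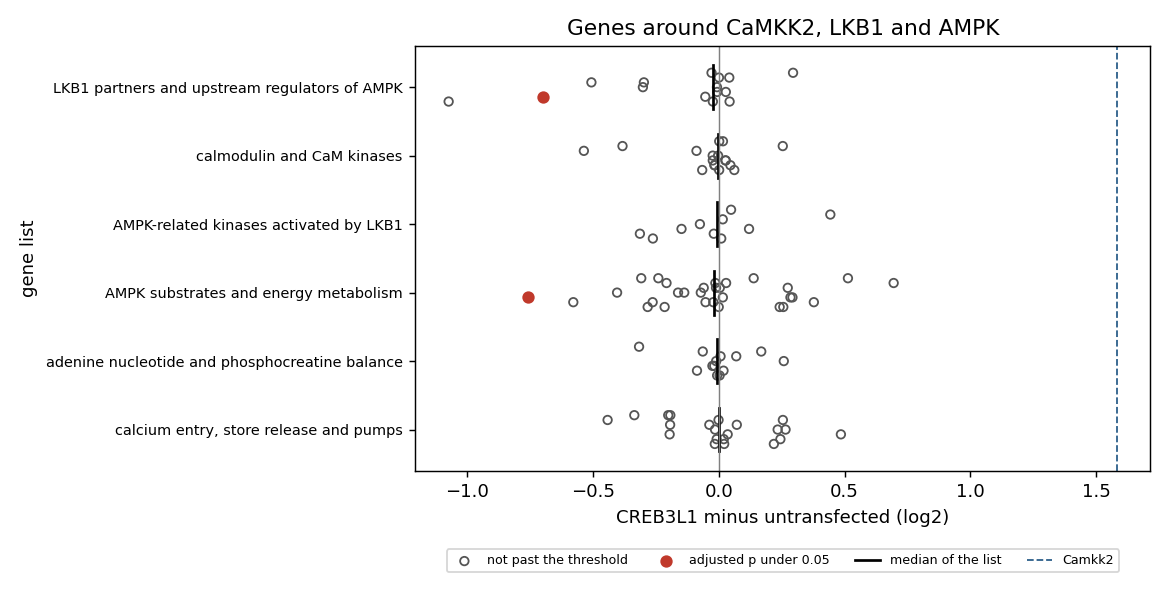
Difference between CREB3L1 and untransfected cells (horizontal axis, log2) for each measured gene of 6 lists around CaMKK2, LKB1 and AMPK, 1 point per gene. Filled red points passed an adjusted p of 0.05, black bars are list medians and the dashed line marks Camkk2 at 1.58. Ppp2ca (-0.70) and Pfkfb3 (-0.76) are the points that passed, and the list medians lie between -0.02 and 0.00.

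Genes whose values followed those of Camkk2 most closely were ranked by Pearson correlation over the 6 arrays among 7651 genes with a mean at or above background. The highest were Prl8a9, a rodent prolactin family gene (r = 0.9990), Tmem9b (0.9967), C1galt1c1, the chaperone gene of an O-glycosylation enzyme (0.9961), Gpx8, a peroxidase gene of the endoplasmic reticulum (0.9944), and Fam111a (0.9927). Each was higher on all 3 CREB3L1 arrays, with differences of 2.89 ± 0.09, 0.26 ± 0.03, 0.62 ± 0.05, 0.78 ± 0.07 and 0.52 ± 0.05 in that order. The 6 points fall in 2 groups and come from the same arrays for every gene. Since Camkk2 itself split by group, genes picked for so high an r are bound to be higher on the CREB3L1 arrays. Both r and these differences are therefore given as a description.

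Markers of other cell types were set beside these values. Of 34 marker genes measured, 1 passed the threshold, the neuronal synapse gene Snap25, which was below background in CREB3L1 cells (4.33 ± 0.07) and just above it in untransfected cells (5.39 ± 0.08, SD, n = 3 each), at least 1.31-fold lower (adjusted p = 0.00291). The other 4 neuron markers lay at 3.03 or less on every array. The summed log2 level of the basal and myoepithelial list was 56.7 to 57.9 on CREB3L1 arrays and 57.8 to 58.0 on untransfected arrays. The low end of 56.7 belongs to CREB3L1 replicate 3. For the fibroblast and mesenchymal list it was 30.2 to 30.6 on CREB3L1 arrays and 30.1 to 30.7 on untransfected arrays. The summed neuron list was 15.1 to 15.2 on CREB3L1 arrays and 16.0 to 16.4 on untransfected arrays. That gap comes from Snap25, which differed by -1.06, while the other 4 neuron markers differed by -0.02 to 0.03. The part of the neuron list in the other results was not tested. All of these sums include genes below background, whose signal gives no level of the transcript.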

How the data were processed

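The authors deposited 1 table of RMA values on a log scale, read here as log2 because it spans 0.27 to 17.2. RMA and Partek 6.6 are named in the submitters' processing notes, while probe-level settings and the base of the logarithm are not. Of 31099 probe sets, 57 controls were set aside. Symbols came from GEO's platform annotation, where 20826 probe sets had 1 symbol, 436 several and 9780 none. All member symbols were also those of RefSeq. List genes are represented by their brightest probe set, judged over all arrays.

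Samples were grouped by their transfection label, and replicate numbers follow accession order and pair nothing. No 2 arrays were identical (at most 10 equal values). Tests used limma's lmFit and eBayes (version 3.58.1, R 4.3.3, two-sided), with Benjamini-Hochberg adjustment over 31042 probe sets and a threshold of 0.05. Differences are CREB3L1 minus untransfected, with the standard error. The table holds no detection calls. With 1 group's mean below background, the fold sets the other mean against the background level; with both below, none is stated. The number of arrays limits the precision.

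The fit was tested on simulated data. Alternatives were other normalisations, variance models, array weights, a filter on dim probe sets, probe sets averaged by gene, and each array left out. Background levels of 4 and 6, and the gene average for single named genes, were added after the data were seen. Members and lists were chosen with earlier results of these data known. Named are all members, per list every gene past the threshold or the 2 with the smallest p, the 5 genes on each side of Camkk2 and the 5 most correlated with it. Further list genes named for their role, among them Cab39, Strada, Stradb, Map3k7, Calm2, Camk4, Acaca, Ulk1, Rptor, Fasn and Srebf1, were picked after their values were seen.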

Additional observations from a re-analysis of the deposited data

How the results depend on the processing

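No member probe set other than the brighter one of Camkk2 passed the threshold in any of the 13 alternatives run on probe sets. The Camkk2 difference, a value the choice of genes rests on, was 1.51 to 1.63 with each array left out in turn, and 1.05 with both probe sets averaged, the second being below background. Of 222 values of the other member probe sets under alternatives, 1 moved by over 1 SD, a Stk11 probe set below background. With a background level of 4 or 6 in place of 5, 7 and 6 member probe sets were at or above it, Camkk1 being the one that changed. Over all probe sets, the counts higher and lower were 132 and 299. They were 600 and 952 with array weights, and 9 and 65 with the ordinary linear model, 79 were higher with a mean-variance trend, and with each array left out they ranged from 28 to 479 higher and from 116 to 756 lower, the highest being without CREB3L1 replicate 3. Of the pathway list genes, 2 passed. This count was 8 with array weights, 3 with probe sets averaged by gene, and 1 with a mean-variance trend, median centring or robust eBayes. It was 0 with the ordinary linear model, and 0 to 6 with each array left out, again highest without CREB3L1 replicate 3. Ppp2ca lost its call with median centring (adjusted p = 0.0545), robust eBayes (0.0564), a mean-variance trend (0.0673) and the ordinary model (0.212). Pfkfb3 lost it with the ordinary model (0.0912). Averaged over their probe sets, Ppp2ca and Pfkfb3 gave -0.37 and -0.26, the other probe sets being below background. Both still passed by limma on these gene averages (adjusted p = 0.0478 and 0.0346). Nuak2 and Atp2b1 passed with array weights (adjusted p = 0.00573 and 0.0290). With probe sets averaged by gene, Nuak2 passed by limma (adjusted p = 0.0426) and Atp2b1 did not (0.309). The cause of the lost and gained calls was not tested. No paired analysis was possible because no replicate number in the labels links a CREB3L1 sample to an untransfected one. For the 12 of 19 member probe sets below background, a difference that stays below that level gives no measure of the transcript.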

Other observations

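Genes that set the balance of adenine nucleotides, to which the AMPK gamma subunits respond, gave 0 of 13 measured members past the threshold by limma or the ordinary linear model. The median difference was -0.01. By limma 1 of the 13 had an unadjusted p below 0.05, where 14.0% of all genes did. The smallest p belonged to Ak4, an adenylate kinase gene of mitochondria, which read 7.92, 7.72 and 7.97 in CREB3L1 cells and 7.52, 7.67 and 7.65 in untransfected cells (0.26 ± 0.08, adjusted p = 0.351). The AMP deaminase gene Ampd3 followed, with -0.32 ± 0.18 (adjusted p = 0.803). It read 10.52, 10.60 and 11.10 in CREB3L1 cells, the last of these on replicate 3, and 10.92, 11.02 and 11.22 in untransfected cells. Without that array its difference was -0.50 (adjusted p = 0.0648).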
